A study of Danio rerio with 12 samples.

Results

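DNA replication genes are described here in whole zebrafish larvae given iron oxide nanoparticles with a dextran coat, in larvae labelled IC, and in control larvae. The genes were picked by a rule on their names, which was set with earlier results of these data known. They carry symbols of the origin recognition complex, the licensing factors, the MCM and GINS helicase proteins, the replicative polymerases, the clamp and its loader, RPA, the enzymes that finish Okazaki fragments, and the enzymes that supply deoxynucleotides. The rule found 50 genes among the 19983 rows of the count table, under 49 different symbols, because 2 rows share the symbol MCM6. Symbols follow the name table, which writes many zebrafish genes in the human style. ORC2, ORC3, RFC1, MCM9, POLE4, RRM1 and RNASEH2A were not analysed here.

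All larvae carried the Tg(fli:EGFP) transgene, whose fli promoter drives a green fluorescent protein in blood vessels, and were sampled at 120 hours after fertilization. The 3 conditions were Dx-IONP (the coated particles), IC (not spelled out in the labels, and by elimination the iron group) and control. Neither dose nor exposure time is stated in the labels. Each condition was 1 poly(A) library from 20 pooled embryos, run on 4 lanes, so the 12 GEO samples are lanes of 3 libraries and no difference between conditions has a replicate check. No test between conditions was made. Values are CPM, the reads of a gene over the TMM-scaled depth of its library, from the summed lanes, and the range over lanes is given beside them as a measure of technical spread only.

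Before a cell divides, the origin recognition complex marks the sites where copying starts, and CDC6 and CDT1 load the ring-shaped MCM helicase onto them. CDC45 and the GINS complex turn the loaded ring into an active helicase, polymerase alpha with primase lays down primers, and polymerases delta and epsilon copy the strands on the PCNA clamp. In vertebrates most of these genes are transcribed when cells enter the cycle, under E2F control, and are low in cells that have left it. In a larva of this age, dividing cells lie mainly in the growth zones of retina and brain, the gut, skin and blood-forming tissue. In RNA from whole larvae, fewer cells of a type and less RNA per cell cannot be told apart.

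Library depth was 55381504 reads for Dx-IONP, 48283541 for IC and 84043873 for control. The replication genes were well covered. The median gene had 1822 reads in the Dx-IONP library, 774 in IC and 2216 in control. Lanes of one library differed little. The median coefficient of variation between lanes was 4.68% for Dx-IONP, 5.95% for IC and 4.21% for control. Lanes did not overlap in 45 of the 50 genes between Dx-IONP and control. This held for 44 between IC and control and 46 between Dx-IONP and IC. The share over all genes was not counted, so a gap between lanes describes technical spread only. Among the 48 genes that reached 1 CPM, PRIM2 had the highest coefficient of variation in all 3 libraries. Its lane ranges are given with it. Of the 50 genes, 48 reached 1 CPM in at least 1 library. The low ones were mcm3l, with 29 reads in the Dx-IONP library, 41 in IC and 74 in control, and the second MCM6 row (ENSDARG00000033231), with 14, 8 and 9 reads in the same order. Salmon divides reads between similar copies by likelihood, so the split between MCM3 and mcm3l and between the MCM6 rows is uncertain.

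The replication genes as a set were highest in the Dx-IONP library and lowest in the IC library. Their summed level was 3769 CPM in Dx-IONP, 1425 CPM in IC and 2053 CPM in control, which makes Dx-IONP 1.84-fold control and IC 0.694-fold control. PCNA had the highest count of the set in Dx-IONP and control, and RRM2 in IC. Without PCNA the sums were 2763, 1235 and 1611 CPM, or 1.71-fold and 0.766-fold control. The 4 lanes of each library stayed within 3741 to 3803 CPM, 1421 to 1429 CPM and 2043 to 2077 CPM, so the lanes of the 3 libraries did not overlap.

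The first comparison set the library of particle-treated larvae against that of control larvae. A gene counted as called if its level differed 2-fold or more and the ratio's exact 95% counting interval did not reach 1. By this rule 17 of 48 replication genes (35.4%) were called higher in Dx-IONP, against 21.0% of the 16807 genes that reached 1 CPM. LIG1 was the 1 gene called lower (2.08%), against 24.3% of all genes. The median log2 fold was 0.86 over the replication genes and 0.03 over all genes, and 41 of 48 lay above 0. Over all 50 genes, the low ones included, the median was also 0.86. PRIM2 and MCM10 were kept although they were under 1 CPM in at least 1 library, and mcm3l and the second MCM6 row stayed out of all counts. The genes called higher lay between GINS1 at 1.01 and RNASEH2B at 1.76, and LIG1 stood at -1.68. No replication gene was 4-fold apart, against 6.82% of all genes 4-fold higher and 12.8% 4-fold lower. Scaled to total reads alone, 5 were called higher (FEN1, GINS3, PRIM1, PRIM2 and RNASEH2B) and 2 lower (LIG1 and TK1). That is 10.4% higher and 4.17% lower, against 13.8% and 31.9% of all genes, so the share called higher was then below that of all genes. The scaling moved the median of all genes to -0.35 and that of the replication genes to 0.49, since 1 factor shifts all genes of a library alike.

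In IC against control, the direction was the other way. Of 48 replication genes, 16 (33.3%) were called lower in IC, against 15.2% of all genes, and 2 (GINS4 and PRIM2) were called higher (4.17%), against 14.3%. The median log2 fold was -0.70, against 0.00 over all genes, and 42 of 48 lay below 0. Over all 50 genes the median was -0.68. The 2 comparisons share the control library. FEN1, GINS1, PCNA and RNASEH2B were called higher in Dx-IONP and lower in IC, which is 4 of 48 genes, against 1.49% of all genes.

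Dx-IONP against IC set the particle library against the presumed iron group. Here 35 of 48 genes (72.9%) were called higher in Dx-IONP, against 24.2% of all genes, and 2 (GINS4 and TK1) were called lower, against 26.6%. The median log2 fold was 1.47, against 0.03 over all genes, and 1.41 over all 50 replication genes. In 12 genes (25%) Dx-IONP was 4-fold or more above IC, among them DUT, FEN1, MCM2, PCNA, POLD1 and RNASEH2B. Of all genes, 7.75% were that far above. None of the 48 was 4-fold lower, against 13.4% of all genes. The order Dx-IONP, control, IC from high to low was held by 36 of the 48 genes (75%), against 21.1% of all genes. With total reads alone it was held by 32 of 48, against 15.2% of all genes.

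**Figure D1:**
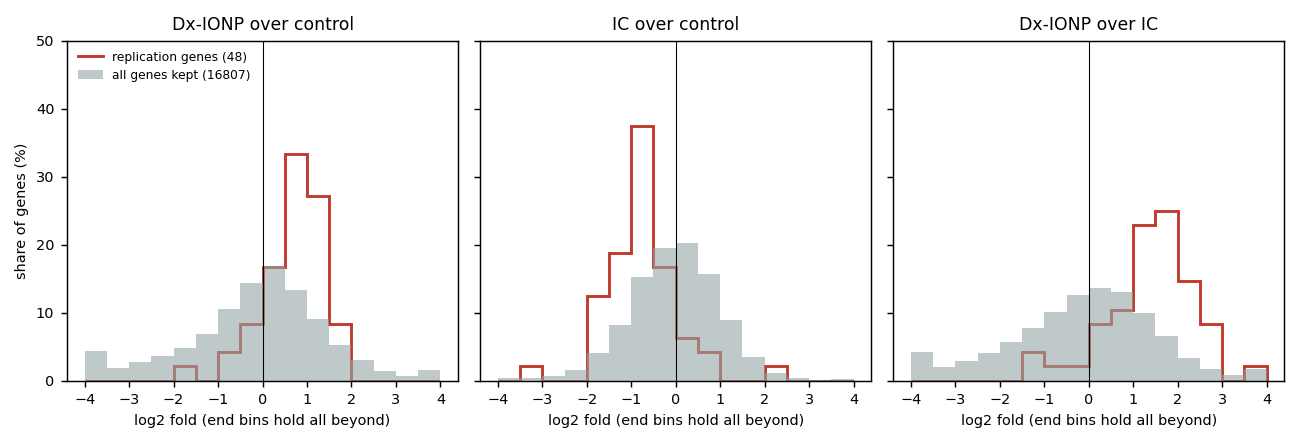
Share of genes (percent, vertical) by log2 fold (horizontal) in each of the 3 comparisons, for the 48 replication genes that reached 1 CPM (red outline) and all 16807 such genes (grey). The replication genes are centred at 0.86, -0.70 and 1.47, while the median of all genes is within 0.03 of 0 in each.

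Origin recognition and licensing genes come first in the order of action. The 4 measured subunits of the origin recognition complex were all above control in Dx-IONP. ORC4 had 75.0 CPM in Dx-IONP, 20.3 CPM in IC and 30.7 CPM in control, a log2 fold of 1.29 for Dx-IONP (95% counting interval 1.22 to 1.36) and -0.60 for IC (-0.71 to -0.50). ORC5 had 30.2 CPM in Dx-IONP, 7.87 CPM in IC and 14.2 CPM in control. ORC4 and ORC5 were the 2 subunits called higher in Dx-IONP, and ORC5 stood at 1.09. ORC1, the subunit that is degraded after the start of S phase in human cells, had 9.39 CPM in Dx-IONP, 4.56 CPM in IC and 6.22 CPM in control, and was called only in Dx-IONP against IC, at 1.04. ORC6 had 29.3, 15.7 and 16.0 CPM in the same order, with a log2 fold of 0.87 in Dx-IONP that was not called, and its lanes overlapped between IC and control.

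The licensing factors differed among themselves. CDC6, the ATPase that helps to load the helicase, had 31.8 CPM in Dx-IONP (lanes 30.3 to 33.8), 12.2 CPM in IC (11.6 to 12.7) and 14.1 CPM in control (13.0 to 15.1), and was called higher in Dx-IONP at a log2 fold of 1.17. Its partner CDT1 had 7.18 CPM in Dx-IONP, 4.56 CPM in IC and 9.39 CPM in control. It was called lower in IC at -1.04 and was at -0.39 in Dx-IONP, uncalled. Geminin (GMNN), the inhibitor of CDT1 that prevents a second round of licensing, had 9.41, 3.28 and 7.13 CPM in the same order and was called lower in IC at -1.11. CDC6 thus stood at 1.17 and CDT1 at -0.39 in the same Dx-IONP library, with counting intervals that did not overlap (1.06 to 1.28 and -0.57 to -0.20).

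The MCM2 to MCM7 genes encode the ring of the replicative helicase and stayed close to each other. All 6 were higher than control in Dx-IONP, with log2 folds of 0.58 to 1.32, and all 6 were lower in IC, with -0.81 to -0.33. MCM2 had 191.9 CPM in Dx-IONP (lanes 190.2 to 194.0), 47.6 CPM in IC (45.3 to 49.3) and 76.6 CPM in control (75.8 to 77.0). MCM4 had 183.8 CPM in Dx-IONP, 59.7 CPM in IC and 85.3 CPM in control. MCM5 had 154.9 CPM in Dx-IONP, 36.7 CPM in IC and 64.2 CPM in control. As in most of the 50 genes, the lanes of these 3 genes did not overlap between any 2 libraries. The share over all genes was not counted. MCM2, MCM4 and MCM5 were called higher in Dx-IONP, at 1.32, 1.11 and 1.27. MCM3, with 118.2 CPM in Dx-IONP, 46.1 CPM in IC and 79.0 CPM in control, was not called, at 0.58. MCM6 (ENSDARG00000057683), with 134.5, 44.1 and 69.9 CPM, and MCM7, with 72.4, 30.5 and 38.4 CPM, were just under the limit, at 0.94 and 0.91. None of the 6 was called in IC against control, where 14.3% of all genes were called higher and 15.2% lower. All 6 were called higher in Dx-IONP against IC, at 1.25 to 2.08, against 24.2% of all genes. Each of these folds follows from the folds over control given above. Outside the ring, MCM10, a factor that helps to start the helicase, had 4.51 CPM in Dx-IONP, 0.865 CPM in IC and 3.15 CPM in control, and was called lower in IC at -1.83 (-2.35 to -1.40) on 44 reads. MCM8, which acts in recombination repair, had 6.78, 3.01 and 5.37 CPM and was uncalled against control, with overlapping lanes in Dx-IONP and control.

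**Figure D2:**
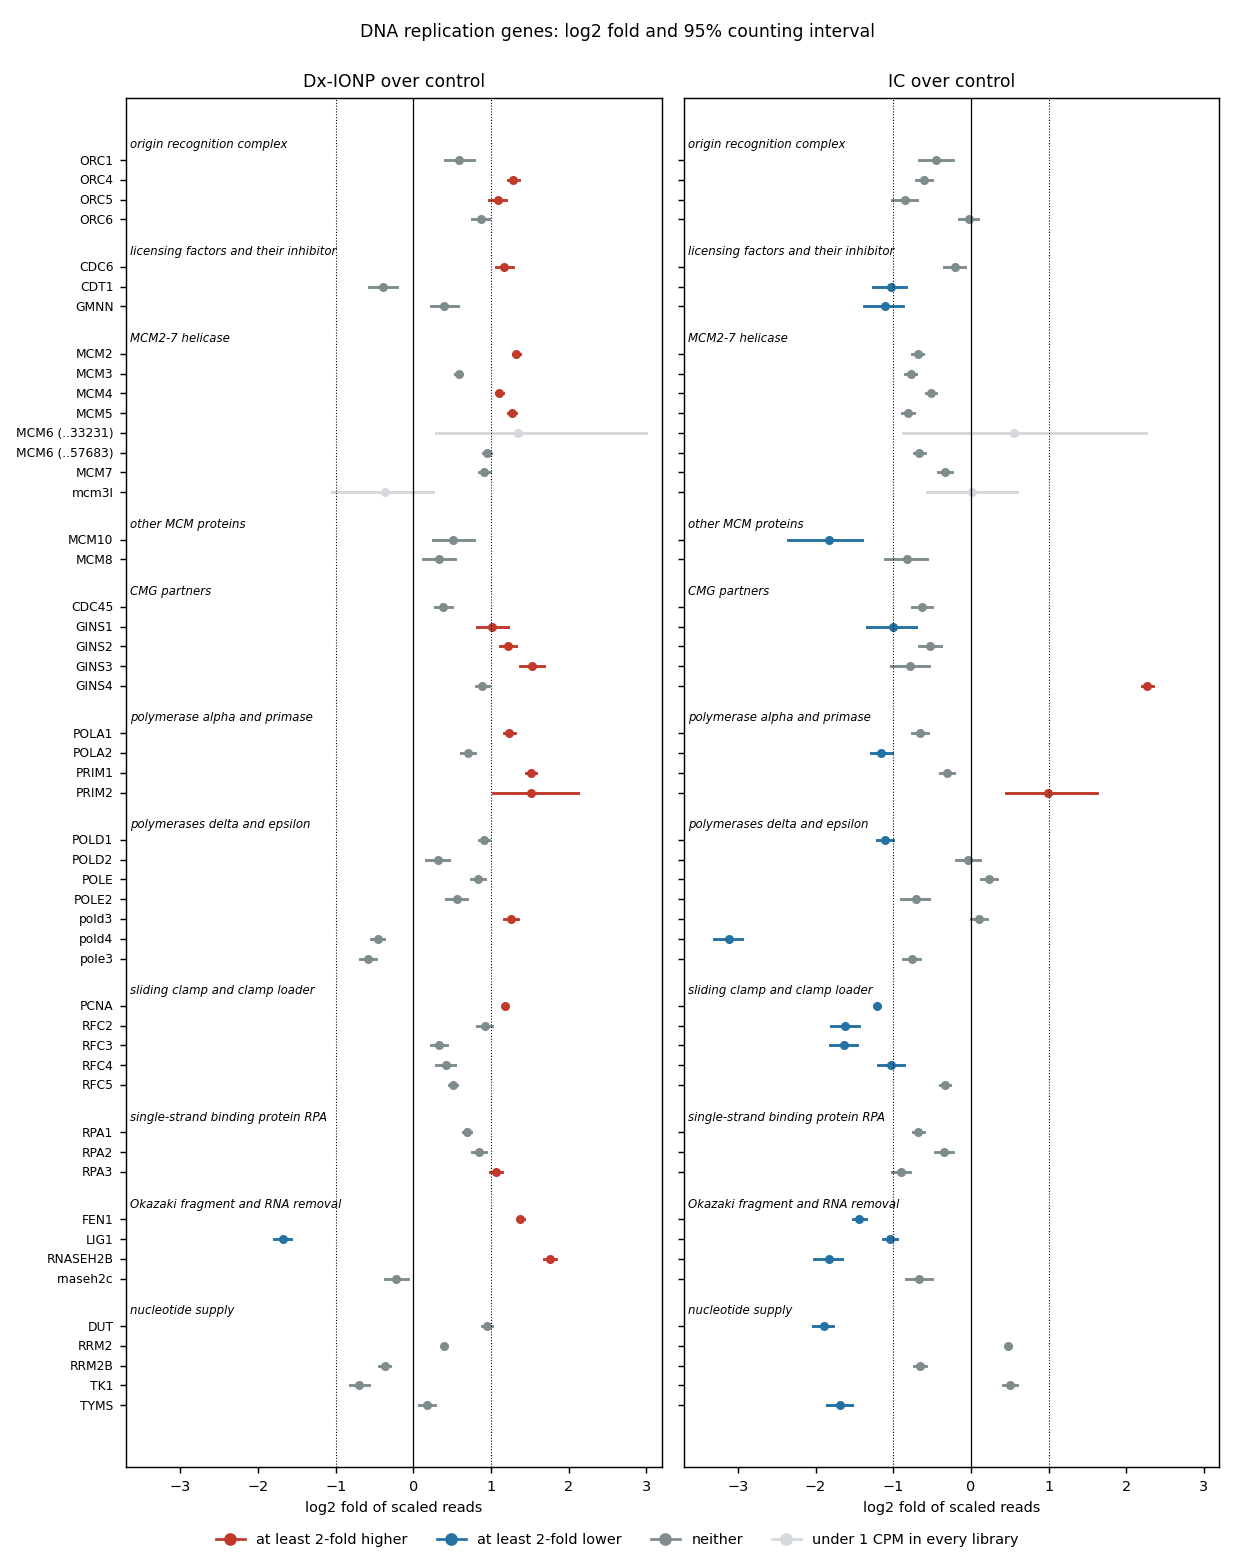
Log2 fold over control (horizontal) of each of the 50 replication genes in Dx-IONP (left panel) and IC (right panel), ordered by role. Points are folds, lines are 95% counting intervals, dotted lines mark 2-fold, and colours mark the call. Most points lie to the right of 0 at the left and to the left of 0 at the right, with LIG1, TK1, GINS4 and PRIM2 among the exceptions.

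CDC45 and the 4 GINS subunits join the MCM ring to form the working helicase. GINS1, GINS2 and GINS3 were called higher in Dx-IONP, at log2 folds of 1.01, 1.22 and 1.52, and stood at -1.01, -0.52 and -0.78 in IC. GINS1 had 8.80 CPM in Dx-IONP, 2.14 CPM in IC and 4.34 CPM in control. GINS2 had 36.7, 11.0 and 15.8 CPM in the same order. GINS3 had 18.3 CPM in Dx-IONP, 3.68 CPM in IC and 6.34 CPM in control. In all 3 the lanes of Dx-IONP lay above every lane of control. Lanes of these 2 libraries did not overlap in 45 of the 50 replication genes. The share over all genes was not counted, so this describes technical spread only. CDC45 had 25.9, 12.8 and 19.8 CPM in the same order and was not called against control. GINS4 did not follow its partners in IC. It had 44.3 CPM in Dx-IONP (lanes 42.3 to 45.5), 115.4 CPM in IC (112.9 to 118.2) and 23.9 CPM in control (23.4 to 24.5). In IC it was 4.83-fold control, a log2 fold of 2.27 (2.20 to 2.34), while CDC45 and the other GINS subunits stood between -1.01 and -0.52. All 4 lanes of the IC library were above every lane of the other libraries. In Dx-IONP GINS4 lay among its partners, at 0.89. The GINS proteins act as a complex of 1 copy each. The log2 fold of GINS4 in IC was 2.97 above the median log2 fold of the other members of this group.

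Polymerase alpha and primase synthesize the RNA-DNA primers of every fragment. PRIM1, the catalytic primase subunit, had 101.0 CPM in Dx-IONP (lanes 94.8 to 105.1), 28.6 CPM in IC (27.1 to 29.8) and 35.5 CPM in control (34.4 to 36.2). Its log2 fold was 1.51 in Dx-IONP (1.45 to 1.57) and -0.31 in IC. The polymerase POLA1 was called higher in Dx-IONP at 1.24, with 78.8 CPM in Dx-IONP, 21.2 CPM in IC and 33.4 CPM in control. Its partner POLA2 had 40.0, 11.0 and 24.6 CPM in the same order and was called lower in IC at -1.15. PRIM2, the large primase subunit, was called higher in both libraries, but its counts are uncertain. It had 74 reads in the Dx-IONP library, 55 in IC and 49 in control, and its lanes ran from 0.168 to 2.41 CPM, from 0 to 2.43 CPM and from 0 to 1.45 CPM. PRIM2 passed 1 CPM only in Dx-IONP and IC, where it was high. Its call in IC was lost without lane 3 or without lane 4.

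Polymerases delta and epsilon do the bulk of the copying, and their subunits spread widely. POLD1, the catalytic subunit of delta, had 76.7 CPM in Dx-IONP, 18.9 CPM in IC and 40.8 CPM in control, and was called lower in IC at -1.11. POLE, the catalytic subunit of epsilon, had 42.4, 27.9 and 23.7 CPM, with log2 folds of 0.84 and 0.23 that were not called. The accessory subunit pold3 had 48.2 CPM in Dx-IONP and 20.2 CPM in control and was called higher at 1.26. In IC it had 21.7 CPM, with lanes that overlapped those of control. The small subunit pold4 had 32.8 CPM in Dx-IONP (lanes 29.6 to 34.3), 5.15 CPM in IC (5.05 to 5.35) and 45.1 CPM in control (42.2 to 48.2). It was 8.75-fold lower in IC than in control, a log2 fold of -3.12 (-3.32 to -2.95) and the lowest of all 48 genes, while the other 6 genes of the group stood between -1.11 and 0.23. The histone-fold subunit pole3, which also serves in a chromatin remodelling complex, was below control in both libraries, at -0.58 in Dx-IONP and -0.76 in IC, uncalled, with 20.6 CPM in Dx-IONP, 18.1 CPM in IC and 30.8 CPM in control. POLE2 had 16.3, 6.75 and 11.1 CPM in the same order and was called only in Dx-IONP against IC, at 1.27. POLD2 was the flattest of the group, with 12.7, 10.01 and 10.2 CPM.

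PCNA, the ring-shaped clamp that holds polymerases on DNA, is widely used as a marker of dividing cells. PCNA (ENSDARG00000054155) had 1007 CPM in Dx-IONP (lanes 1004 to 1010), 190.7 CPM in IC (185.7 to 194.6) and 442.1 CPM in control (434.1 to 446.4). The log2 fold was 1.19 in Dx-IONP (1.17 to 1.21) and -1.21 in IC (-1.25 to -1.18). The measured clamp loader subunits were also above control in Dx-IONP and below it in IC, but only in IC were any called against control. RFC2, RFC3 and RFC4 were called lower in IC, at -1.62, -1.64 and -1.02, while all 4 measured RFC genes stood at 0.33 to 0.92 in Dx-IONP, uncalled. RFC2 had 34.2 CPM in Dx-IONP, 5.86 CPM in IC and 18.1 CPM in control. RFC3 had 24.7, 6.31 and 19.7 CPM and RFC4 20.3, 7.47 and 15.2 CPM in the same order. RFC5 was the closest to control in IC, at -0.33, with 108.8, 60.8 and 76.5 CPM.

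RPA coats single-stranded DNA at the fork, and its 3 subunits stayed close to each other. RPA1, RPA2 and RPA3 had log2 folds of 0.69, 0.85 and 1.07 in Dx-IONP and of -0.68, -0.35 and -0.90 in IC. RPA1 had 102.4 CPM in Dx-IONP, 39.7 CPM in IC and 63.5 CPM in control, and RPA2 had 41.2, 18.0 and 22.9 CPM in the same order. RPA3, the smallest subunit, had 57.5 CPM in Dx-IONP, 14.7 CPM in IC and 27.4 CPM in control, and was the 1 subunit called against control, higher in Dx-IONP.

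**Figure D3:**
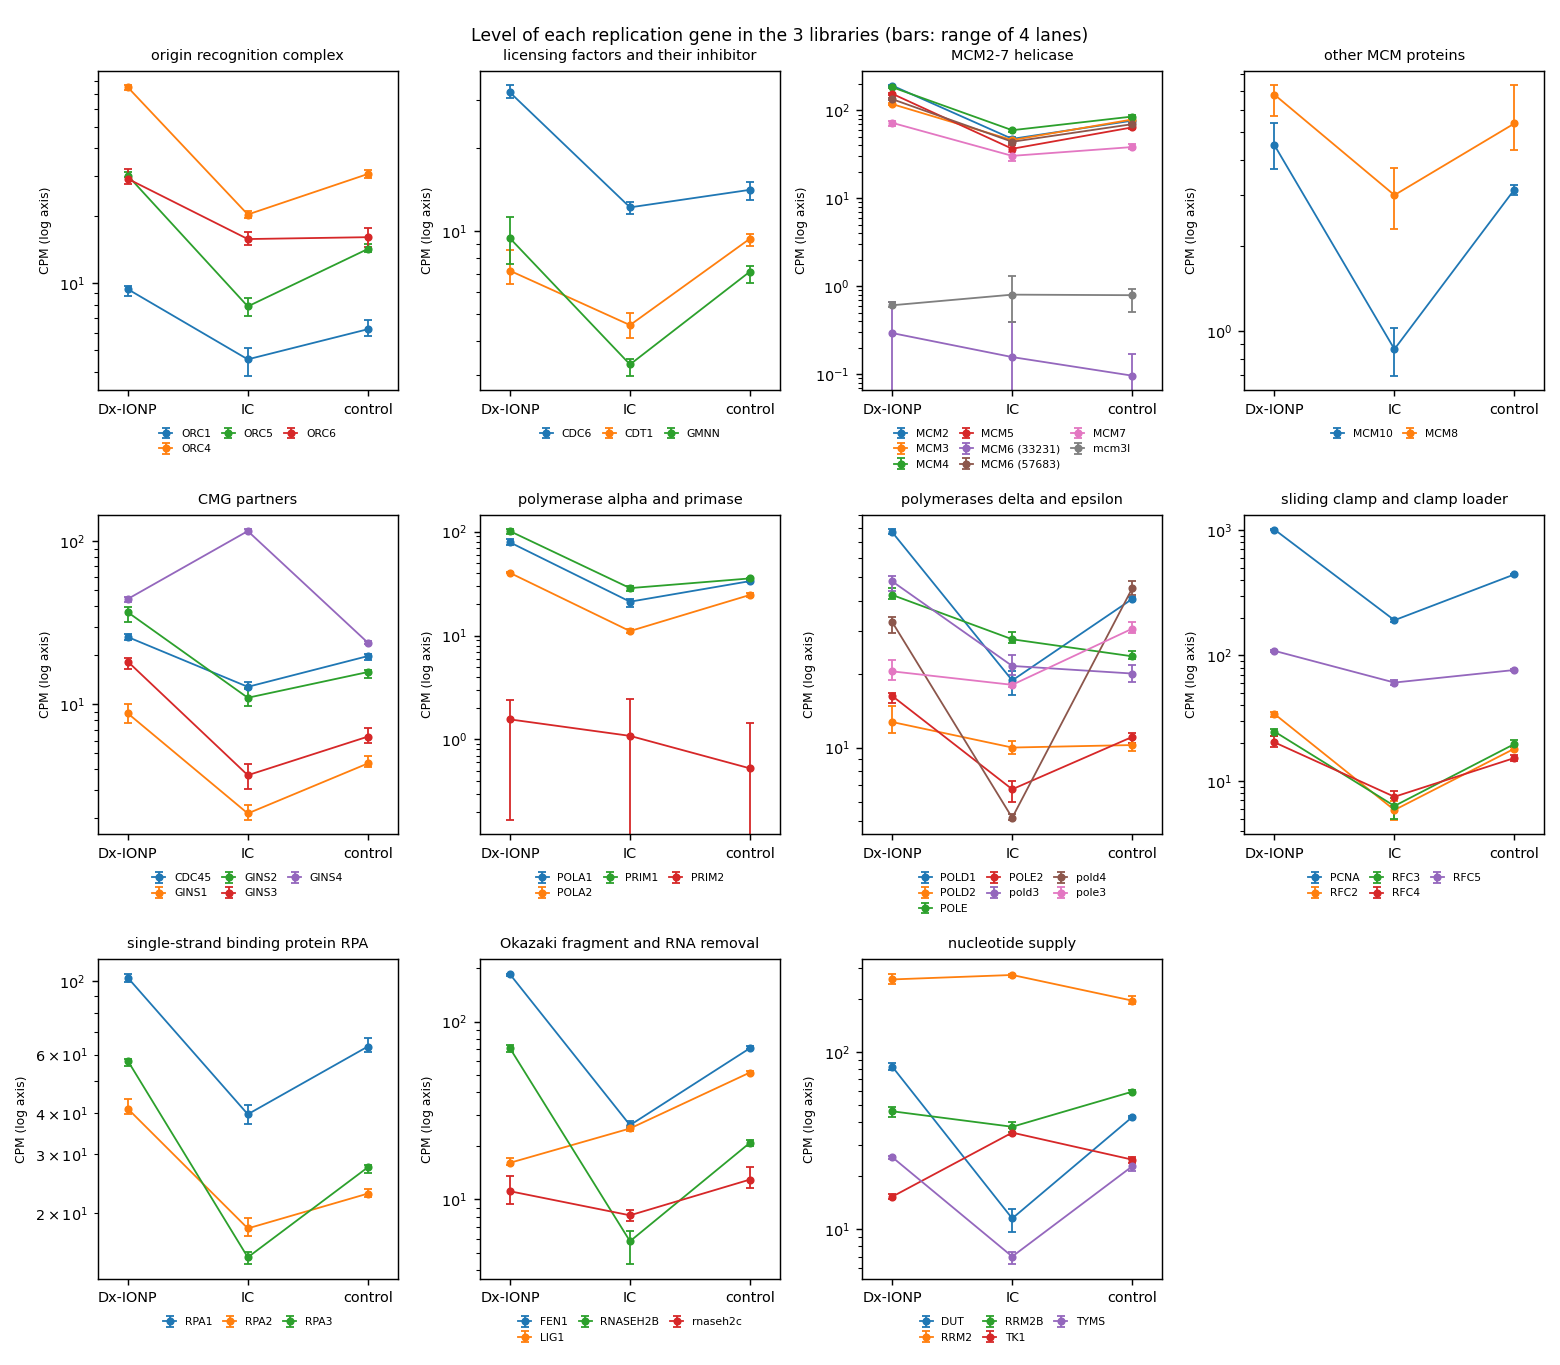
Level of each replication gene (CPM of the summed lanes, log axis) in the Dx-IONP, IC and control libraries, 1 panel per role, with bars for the range over 4 lanes and lines joining values of 1 gene. Bars that run off the lower edge of a panel reach 0. Most lines dip at IC and are highest at Dx-IONP. GINS4 peaks at IC, with 115.4 CPM, and pold4 has its deepest point there, with 5.15 CPM.

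The enzymes that join Okazaki fragments split in Dx-IONP. FEN1, the nuclease that trims the flap at the end of each fragment, had 184.2 CPM in Dx-IONP (lanes 179.6 to 185.8), 26.2 CPM in IC (25.3 to 27.7) and 70.9 CPM in control (69.9 to 73.1). Its log2 fold was 1.38 in Dx-IONP (1.33 to 1.42) and -1.44 in IC (-1.52 to -1.35). LIG1 (ENSDARG00000060041), the ligase that seals the nick FEN1 leaves, had 16.1 CPM in Dx-IONP (15.5 to 17.2), 25.1 CPM in IC (24.4 to 26.0) and 51.7 CPM in control (50.5 to 52.9). LIG1 was thus 3.22-fold lower in Dx-IONP and 2.06-fold lower in IC than in control, with log2 folds of -1.68 (-1.80 to -1.58) and -1.04 (-1.14 to -0.96). LIG1 was the 1 replication gene with the order control, IC, Dx-IONP from high to low, an order held by 17.9% of all genes.

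RNase H2 removes ribonucleotides from DNA, and 2 of its 3 subunits were measured. RNASEH2B had 70.7 CPM in Dx-IONP (lanes 67.1 to 73.7), 5.82 CPM in IC (4.33 to 6.65) and 20.8 CPM in control (20.0 to 21.6). It was the highest of the 48 genes in Dx-IONP against control, at 1.76 (1.68 to 1.84), and the third lowest in IC, after pold4 and DUT, at -1.83 (-2.02 to -1.66), and stood 12.1-fold higher in Dx-IONP than in IC. Its partner rnaseh2c had 11.1, 8.14 and 12.9 CPM, with log2 folds of -0.22 and -0.67 that were not called.

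Among the genes that supply deoxynucleotides, none was called in Dx-IONP against control. Of all genes, 21.0% were called higher and 24.3% lower there. DUT, which removes dUTP, was nearest, with 82.7 CPM in Dx-IONP, 11.5 CPM in IC and 42.9 CPM in control, at 0.95 and -1.90. TYMS, which makes thymidylate, had 25.5, 7.001 and 22.6 CPM and was called lower in IC at -1.69. TK1, the salvage enzyme for thymidine, ran the other way, with 15.2 CPM in Dx-IONP (lanes 14.8 to 15.7), 35.1 CPM in IC (34.1 to 37.2) and 24.7 CPM in control (23.6 to 25.6). TK1 was 2.30-fold lower in Dx-IONP than in IC. RRM2, the regulated subunit of ribonucleotide reductase, had 257.0 CPM in Dx-IONP (241.8 to 276.3), 272.3 CPM in IC (265.5 to 277.1) and 195.1 CPM in control (186.1 to 206.2), so it was slightly above control in both libraries and uncalled. RRM2B, the p53-induced form in mammals, had 46.3, 37.8 and 59.7 CPM and was uncalled.

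**Figure D4:**
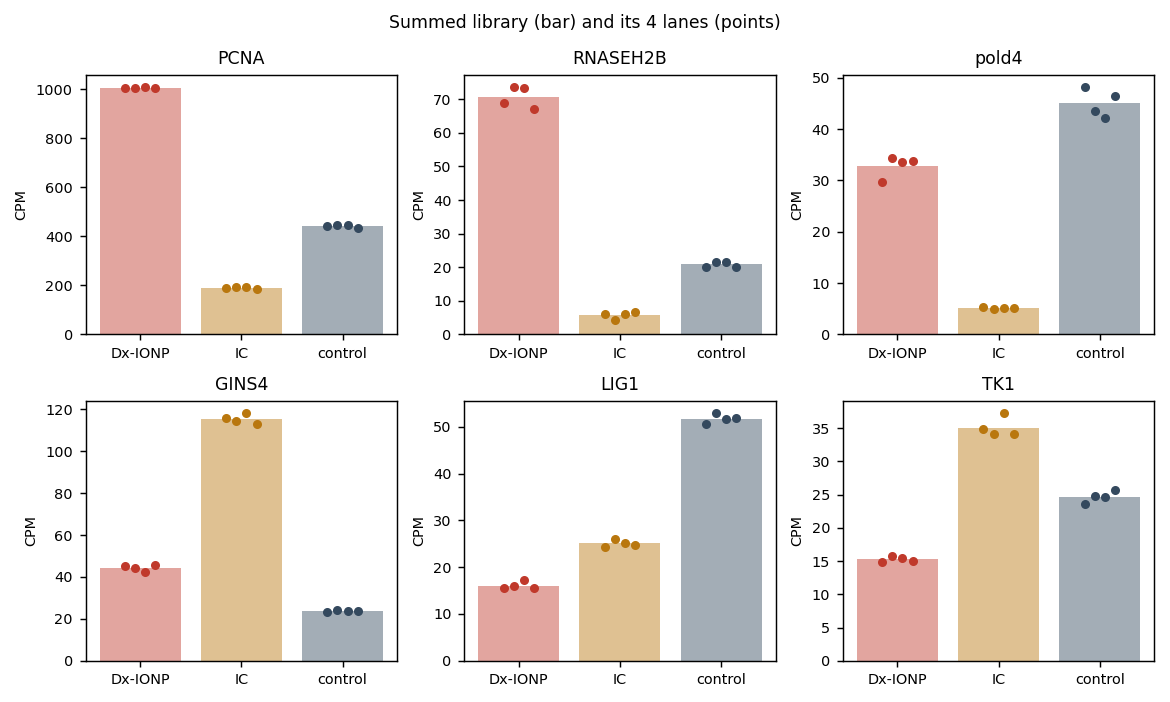
Level in CPM (vertical, from 0) of PCNA, RNASEH2B, pold4, GINS4, LIG1 and TK1 in the Dx-IONP, IC and control libraries, with bars for the summed library and points for its 4 lanes. In none of the 6 genes do the lanes of any pair of libraries overlap. The same held for most of the 50 replication genes, and the share over all genes was not counted. PCNA and RNASEH2B share the order Dx-IONP, control, IC from high to low, which the other 4 genes do not have.

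Other genes of DNA replication, from 8 lists that the naming rule does not cover, had joined medians closer to 0 than the 48 genes above. Taken list by list, fork protection genes and alternative clamp loaders stood further from 0 in IC, at -0.82 against -0.70. Of 65 measured genes, 15 were called higher and 4 lower in Dx-IONP against control (23.1% and 6.15%, median log2 fold 0.40), against 21.0% and 24.3% of all genes. The share higher was near that of all genes and the share lower was below it. There were 7 higher and 14 lower in IC against control (10.8% and 21.5%, median -0.45), against 14.3% and 15.2% of all genes. In Dx-IONP against IC, 23 were higher and 5 lower (35.4% and 7.69%), against 24.2% and 26.6%. Factors that fire origins were not called in Dx-IONP (0 of 6, median 0.11). In IC the MCM-binding protein MCMBP, with 12.6 CPM against 37.9 CPM in control, was the 1 called, at -1.58, and had 39.5 CPM in Dx-IONP. The share called lower in IC was 16.7%, near the 15.2% of all genes. Among fork protection genes and alternative clamp loaders, atad5a, which unloads PCNA, had 56.6 CPM in Dx-IONP, 28.4 CPM in IC and 20.8 CPM in control and was called higher in Dx-IONP at 1.44, and DSCC1, of an alternative clamp loader, was called lower in both, at -1.27 in Dx-IONP and -1.77 in IC, with 5.73, 4.03 and 13.8 CPM. atad5b, a second such gene, had 15.5 CPM in Dx-IONP, 4.56 CPM in IC and 9.33 CPM in control and was called lower in IC at -1.03, as was CHTF8, of the same loader as DSCC1, at -1.64. tipin, a fork protection gene, was called higher in Dx-IONP than in IC, at 1.54, and recql4, a helicase of origin firing, at 1.31. The helicase-nuclease dna2 was the 1 of 5 topology and end-processing genes called in Dx-IONP, at 1.25. This share of 20% was near the 21.0% of all genes called higher. dna2 had 44.6 CPM in Dx-IONP, 15.7 CPM in IC and 18.7 CPM in control, and RNASEH1 was called lower in IC, at -1.40. The symbol TOP1 has 2 rows. ENSDARG00000070545 had 319.7 CPM in Dx-IONP, 391.1 CPM in IC and 279.2 CPM in control, uncalled, while ENSDARG00000086775 had 2.67, 1.59 and 3.34 CPM in the same order and was called lower in IC at -1.05, on 81 reads. The nuclease exo1 was called higher in Dx-IONP than in IC, at 1.31.

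Of 11 genes that copy chromatin, 3 were called higher and 1 lower in Dx-IONP (27.3% and 9.09%), and 3 higher and 2 lower in IC (27.3% and 18.2%). Of all genes, 21.0% and 24.3% were so called in Dx-IONP, and 14.3% and 15.2% in IC. UHRF1, which guides DNA methylation to new strands, had 118.9 CPM in Dx-IONP, 127.6 CPM in IC and 53.8 CPM in control, and was called higher in both, at 1.14 and 1.25. The methyltransferase it recruits, DNMT1, had 116.3, 38.2 and 82.4 CPM and was called lower in IC at -1.11. slbp, which binds the stem-loop of replication histone mRNA, had 68.4, 113.9 and 31.7 CPM, and was called higher in both, at 1.11 and 1.85. The histone chaperone gene chaf1a had 21.8, 36.8 and 57.5 CPM and was called lower in Dx-IONP at -1.39. SSRP1, of another histone chaperone, was called higher in Dx-IONP than in IC, at 1.73. An ASF1B row (ENSDARG00000101037) had 30.4 CPM in Dx-IONP, 56.3 CPM in IC and 13.2 CPM in control, while the other had 46.4, 148.4 and 87.7 CPM. Of 6 licensing control genes, SKP2 and DTL were called higher in Dx-IONP, at 1.39 and 1.25 (33.3%, against 21.0% of all genes). SKP2 and DTL are parts of the ligases that degrade CDT1 and other substrates. SKP2 had 61.0 CPM in Dx-IONP, 15.6 CPM in IC and 23.3 CPM in control. DTL had 14.3, 2.87 and 5.995 CPM in the same order and was called lower in IC at -1.05. fbxo5, an inhibitor of the ligase that degrades geminin, was called higher in Dx-IONP than in IC, at 1.67.

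Of 7 genes of nucleotide synthesis, 3 were called higher and 1 lower in Dx-IONP (42.9% and 14.3%). In IC 1 was called higher and 2 lower (14.3% and 28.6%). Of all genes, 21.0% and 24.3% were so called in Dx-IONP, and 14.3% and 15.2% in IC. UMPS, of pyrimidine synthesis, had 43.8 CPM in Dx-IONP, 4.96 CPM in IC and 17.2 CPM in control, and was called in both, at 1.34 and -1.79. SHMT1, of folate metabolism, had 180.5, 43.6 and 80.2 CPM and was called higher in Dx-IONP at 1.17. DCTD, which deaminates dCMP, had 24.1, 24.4 and 11.6 CPM and was called higher in both, at 1.06 and 1.07. DCK, a salvage kinase, had 2.57, 4.42 and 10.8 CPM and was called lower in both, at -2.05 and -1.28. The E2F and DREAM regulators that control replication genes were mostly uncalled. Of 13, e2f2 and MYBL2 were called higher in Dx-IONP (1.18 and 1.03), a share of 15.4%, below the 21.0% of all genes. RBL2, of the repressor side, had 18.1 CPM in Dx-IONP, 70.0 CPM in IC and 31.0 CPM in control and was called higher in IC at 1.17. E2F4, a repressor, was called lower in Dx-IONP than in IC, at -1.24, and tfdp2, a partner of E2F proteins, higher at 1.21. Among 10 checkpoint and p53 response genes, 3 were called higher and 1 lower in Dx-IONP (30% and 10%, against 21.0% and 24.3% of all genes). In IC 2 were called higher and 3 lower (20% and 30%, against 14.3% and 15.2%). CCNG1 was called higher in both, with 3984 CPM in Dx-IONP and 2945 CPM in IC against 892.8 CPM in control. atrip, which brings the ATR kinase to single-stranded DNA, was also called higher in both, at 1.72 and 1.54. CHEK1, the kinase ATR activates, had 16.0, 4.11 and 10.9 CPM and was called lower in IC at -1.41. Both GADD45A rows were called lower in IC as well, at -1.69 and -1.65. The p53 target cdkn1a, an inhibitor of the cell cycle, had 0.442 CPM in Dx-IONP, 1.16 CPM in IC and 1.45 CPM in control. These rest on 21, 59 and 135 reads in the same order. It was called lower in Dx-IONP against control, at -1.65 (-2.45 to -1.04), and its lanes overlapped between IC and control. In the same list, mdm2 stood at -0.53 in Dx-IONP and 0.66 in IC against control, both uncalled. It was called lower in Dx-IONP than in IC, at -1.19. PHLDA3 stood at 0.07 in Dx-IONP and 0.02 in IC against control and was uncalled.

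**Figure D5:**
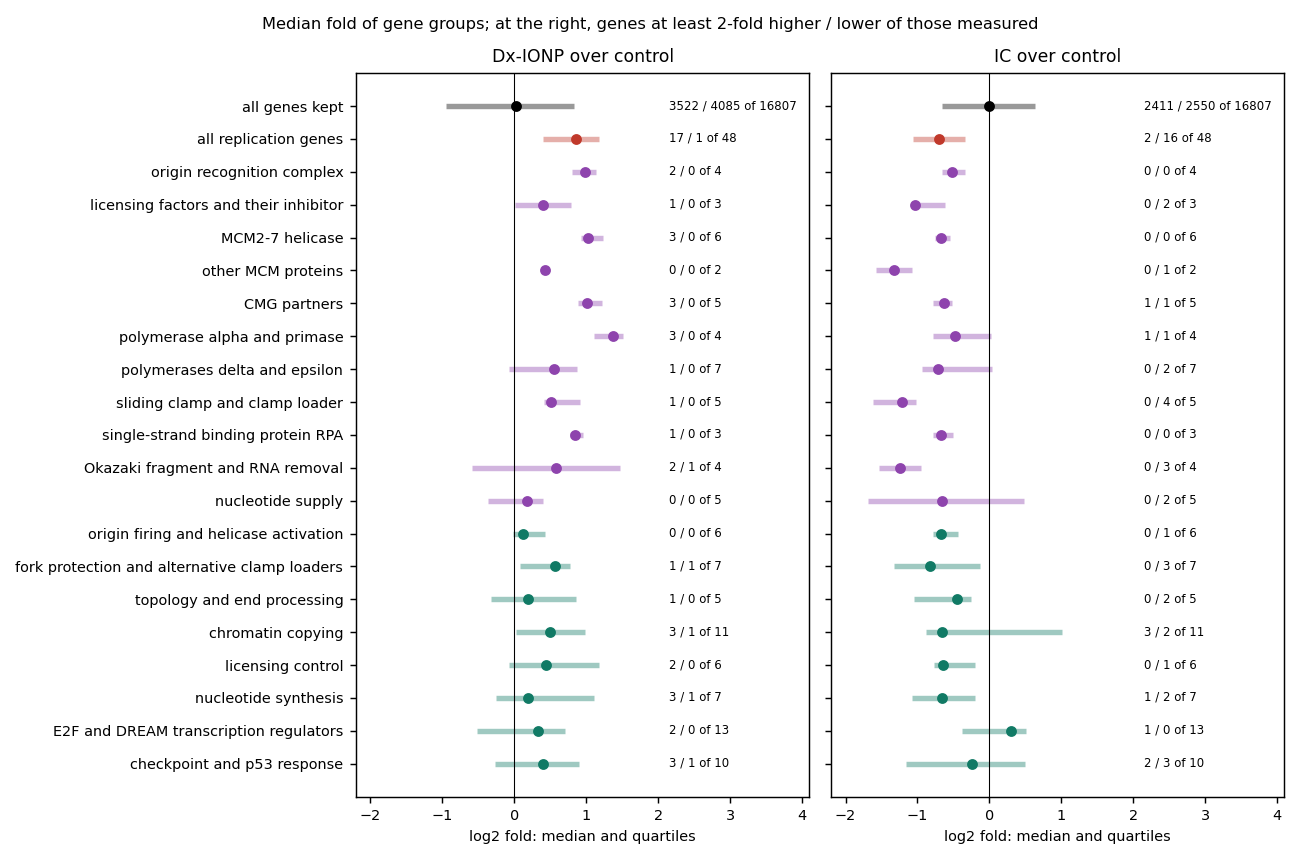
Median log2 fold (points) and quartiles (bars) over control in Dx-IONP (left panel) and IC (right panel) for all genes, all replication genes, their 11 roles (purple) and 8 lists of other genes (green), with counts called higher and lower at the right. The roles lie right of 0 in Dx-IONP and left of 0 in IC, and the E2F and DREAM list is above 0 in both, at 0.33 and 0.29.

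Markers of several cell types differed between the same libraries. Of all genes, the shares called were 21.0% higher and 24.3% lower in Dx-IONP, and 14.3% higher and 15.2% lower in IC. Of 9 erythroid genes that reached 1 CPM, 6 were called higher in Dx-IONP against control and 0 lower, and in IC 1 was called higher and 5 lower. Their summed level was 5356 CPM in Dx-IONP, 728.2 CPM in IC and 2058 CPM in control. Genes of neural and retinal progenitors went both ways, with 2 of 9 higher and 2 lower in Dx-IONP and 1 and 1 in IC, and summed to 854.3, 1024 and 1287 CPM. Genes of differentiated cells were low in Dx-IONP. The 4 neuronal genes summed to 116.1 CPM in Dx-IONP, 1924 CPM in IC and 1508 CPM in control, and the 8 photoreceptor genes to 27.9, 813.1 and 1436 CPM. All 4 neuronal genes and 6 of 7 photoreceptor genes that reached 1 CPM were called lower there.

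The other markers were few or mixed. The 2 hatching gland genes summed to 41.2 CPM in Dx-IONP, 1.28 CPM in IC and 0.140 CPM in control, with he1.3 at 0 reads in IC and control. The 7 germ cell and maternal genes summed to 11.3, 18.7 and 16.0 CPM, and zp3 and buc were at 0 reads in IC. Replication histone mRNAs mostly lack a poly(A) tail, and these are poly(A) libraries. Of 20 histone rows, 16 were called higher and 2 lower in Dx-IONP (80% and 10%, against 21.0% and 24.3% of all genes). In IC 0 were called higher and 1 lower (0% and 5%, against 14.3% and 15.2%). Most of those rows had few or no reads outside Dx-IONP. The lower quartile of their log2 folds was 8.03 for Dx-IONP against control and 8.12 against IC. Such rows mostly reached 1 CPM only through Dx-IONP, where they were high. The filter thus largely fixed these shares, which say little about the histone rows, and no median fold is given. The 20 rows summed to 3708 CPM in Dx-IONP, 1713 CPM in IC and 1467 CPM in control. In IC the genes of cytosolic ribosomal proteins were low, with 61 of 71 called lower (85.9%, against 15.2% of all genes) and 0 higher (median -1.84). In Dx-IONP 4 were lower and 11 higher (5.63% and 15.5%, median 0.37), against 24.3% and 21.0% of all genes. The part of these cell types, of the histone rows, of the ribosomal protein genes and of transcript length in the values of the replication genes was not tested.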

How the data were processed

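RNA was sequenced from 3 pools of 20 zebrafish embryos, 1 library each, on 4 lanes. The submitters' processing notes name Salmon 1.6.0, FastQC, R 4.1.2 and DESeq2 1.34.0, with the genome build GRCz11. The deposited values are estimated counts of each gene in each lane, not normalized, which the authors gave as whole numbers. The labels do not say how transcripts were summed to genes or whether strand was used. Symbols came from a name table, which paired 19182 of 19983 rows, and synonyms from a RefSeq table of GRCz12tu. No coordinates or sequences are given.

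Lanes were summed to 3 libraries, because the labels call them lanes of 1 library. TMM factors (edgeR 4.0.16, R 4.3.3) were 0.857 for Dx-IONP, 1.05 for IC and 1.11 for control. The 16807 genes that reached 1 CPM in any library were kept. Log2 folds used a prior count of 2, adjusted for library size. Intervals are exact 95% Clopper-Pearson intervals of the ratio and cover counting error only; reads carried no molecular identifiers and may be copies of one molecule. Scripts ran on Python 3.11.15 (scipy 1.17.1, pandas 2.3.3, numpy 2.4.6).

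The members, the 8 lists of other genes (62 of 75 entries matched) and the 6 marker lists (36 of 52 matched) were chosen with earlier results of these data known. Named were the members called in any comparison and the extremes of each role, and from each other list up to 3 called genes per comparison by size of fold. From the checkpoint and p53 response list, mdm2 and PHLDA3 were named as well. Alternatives were RLE size factors, total reads, other filters, prior counts and fold limits, and leaving out each lane. A look at lengths had been planned because short transcripts were low in the IC library in earlier results of these data. Lengths, protein and promoter features, the latter also planned, were not used here. The part of transcript length in the IC values was thus not tested.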

Additional observations from a re-analysis of the deposited data

Results flagged for a closer look

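In 8 of 144 groups of 4 lanes (48 genes in 3 libraries), 1 lane stood apart from the other 3 by Dixon's criterion, and chance gives about 1 in 20. In Dx-IONP these were RPA3 with 55.6 CPM in lane 2 (others 57.9 to 58.3), FEN1 with 179.6 in lane 1 (185.7 to 185.8), ORC5 with 31.3 in lane 2 (29.8 to 30.0), ORC1 with 8.73 in lane 4 (9.54 to 9.68) and pold4 with 29.6 in lane 1 (33.5 to 34.3). In IC it was CDC45 with 13.7 CPM in lane 3 (12.4 to 12.5). In control these were GINS2 with 14.6 CPM in lane 3 (16.1 to 16.2) and MCM2 with 75.8 in lane 1 (76.9 to 77.0).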

How the results depend on the processing

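No paired analysis was possible because each condition is 1 library, its lanes are not replicates, and the results come from no test. Under RLE size factors, total reads, other prior counts, other filters and with each lane left out, the medians of the replication genes kept their direction in all 3 comparisons. Without a filter, the second MCM6 row was also called higher in Dx-IONP than in control, on 14 against 9 reads. Counts and medians that moved by more than 1.5 times or beyond the median counting interval were these. With total reads alone, 5 genes were called higher and 2 lower in Dx-IONP against control, against 13.8% and 31.9% of all genes. In IC 1 was called higher (2.08%, against 12.6%). The medians were then 0.49 for Dx-IONP against control and 1.18 for Dx-IONP against IC. With at least 10 CPM, without lane 3 and without lane 4, 1 gene was called higher in IC, against 14.4% to 15.1% of all genes. At 1.5-fold, 29 were higher and 2 lower in Dx-IONP against control (60.4% and 4.17%, against 31.7% and 32.7% of all genes). In IC 32 were lower (66.7%, against 27.5%). At 4-fold, 0 were higher and 0 lower in Dx-IONP against control, against 6.82% and 12.8% of all genes. In IC 1 was higher and 1 lower (2.08% each, against 1.92% and 3.17%). In Dx-IONP against IC, 12 were higher and 0 lower (25% and 0%, against 7.75% and 13.4%). No p-value applies to these counts.

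Leaving out each lane in turn, 16 to 17 genes were called higher and 1 lower in Dx-IONP against control (median 0.84 to 0.87), 1 to 2 higher and 15 to 16 lower in IC against control (-0.73 to -0.69), and 33 to 35 higher and 2 lower in Dx-IONP against IC (1.43 to 1.59). Of the genes whose calls turned on a lane or on RLE scaling, GINS1, RFC4, CDC45 and ORC1 lay near 2-fold and PRIM2 rested on few reads. MCM8 was 1.79-fold lower in IC than in control, on 153 against 500 reads, and became called without lane 4. Over 144 values of single genes, total reads changed 21 calls and RLE 2. Neither the prior count nor the filter enters the call of a gene, so these settings could not change a call. The filter at 10 CPM kept 41 of the 48 genes. It dropped called genes, leaving 15 higher in Dx-IONP against control and 12 lower in IC (36.6% and 29.3%). Of all genes, 21.8% and 14.1% were so called. In Dx-IONP against IC it left 30 higher (73.2%, against 25.1%). Depth limits mcm3l, the second MCM6 row, PRIM2 and MCM10, which had under 100 reads in at least 1 library.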
